A study of Mus musculus with 6 samples.

Results

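Small nucleolar RNAs and the genes that carry them were followed in mouse hearts with and without Elac2. Members were the gene rows named Snhg, Snora, Snord or Scarna with a number, or Gas5, that had at least 30 counts summed over the 6 libraries. Of 51888 gene rows 166 had such a name, and 42 of these reached the minimum. They comprised 15 rows with a host transcript's name (Gas5 and 14 Snhg rows), 11 Snora, 10 Snord and 6 Scarna rows. The members were thus chosen by their summed raw counts, a value that does not use the difference between the groups. Just inside the limit stood Snord83b with 30 counts, Snora41 and Snora31 with 31 each and Snord53 with 33, and just outside it stood Snord70 and Snord19 with 27 each, Snord98, Snord37 and Snord72 with 26 each and Snora2b with 25. Of the 124 named rows below the limit, 73 had 0 counts in all libraries.

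Small nucleolar RNAs (snoRNAs) are short stable RNAs that guide chemical modification of other RNAs in the nucleolus. Box C/D snoRNAs, named Snord, guide 2′-O-methylation with the methyltransferase fibrillarin, and box H/ACA snoRNAs, named Snora, guide pseudouridylation with dyskerin. A few of both kinds, among them Snora73a, Snora73b and Snord118, are needed for cleavage of the ribosomal RNA precursor, and the Scarna RNAs of the Cajal body act on spliceosomal RNAs. In mammals most snoRNAs are cut out of introns, so that one transcript yields a spliced RNA and a snoRNA. The host can be a protein-coding gene, often one for a ribosomal protein, or a non-coding gene such as Gas5 or an Snhg gene, whose spliced RNA is often removed quickly by nonsense-mediated decay. Elac2 is the long form of RNase Z, the endonuclease that removes the 3′ trailer of nuclear and mitochondrial tRNA precursors.

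The groups were 3 hearts of control mice, labelled L/L and Elac2 +/+, and 3 hearts of knockout mice, labelled L/L, cre and Elac2 -/-. All were on a C57BL/6 background and carried loxP sites around an exon of Elac2, which cre driven by the muscle creatine kinase promoter removed in the knockout, so that cells without active cre could keep the gene. The sources used here give no ages. RNA came from total hearts, so fewer cells of a type and less RNA per cell cannot be told apart in any value below.

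Library totals ran from 9850100 to 14461110 counts, and the members took 1939 to 3315 counts in the controls and 5186 to 5996 in the knockouts. Elac2 itself was measured at 15.0, 14.0 and 13.0 CPM (depth-normalised counts, scaled by the TMM method) in the controls and at 5.36, 5.63 and 6.52 CPM in the knockouts, a change of -1.27 on the log2 scale (SE 0.15, edgeR adjusted p = 2.12e-04). Counts of the mitochondrial genome made up 49.3% to 61.1% of a control library and 33.3% to 36.7% of a knockout library. Cardiomyocyte markers were present in every library. Their summed level was 42650 to 43592 CPM in the controls and 21871 to 24514 CPM in the knockouts.

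Across all genes 14302 passed the filter on low counts, and 5215 (36.5%) were called at an adjusted p under 0.05, 2671 higher (18.7%) and 2544 lower (17.8%) in the knockout. With library size alone in place of TMM scaling, the split became 8093 higher and 552 lower, and the median over all genes, in log2 units, moved from -0.01 to 0.68. Fold changes below are on the TMM scale and p-values are from edgeR's quasi-likelihood test, adjusted over all 14302 genes, unless stated otherwise.

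Of the 42 members 31 passed the filter, and 13 of these were higher and 1 was lower in the knockout, beside the backgrounds of 18.7% and 17.8%. The other 17 were not called. The median log2 fold change over the 31 was 0.39. The families differed in these counts. Among host transcripts 8 of 14 tested rose and 1 fell, with a median of 0.98. The 14 include the row named Snhg7, which covers only the position of a snoRNA, as given below. Of the Snora RNAs 3 of 7 tested rose, with a median of 0.81 that was 0.25 without control 2 and 0.27 without knockout 3, where the filter left 9. Without control 3 the Snora RNAs that rose were 2 of 8. Of the Snord RNAs 2 of 4 rose, with a median of 0.83 that was 0.31 without knockout 3. The number was 0 without control 1, control 2 or knockout 3, and 1 without control 3 or knockout 2 and with the mouse number as a block. The filter asked for about 10 counts in as many libraries as a group holds. Snord118 (9, 9 and 8 counts in the controls, 37, 24 and 23 in the knockouts) passed it through the knockouts. So did Snord15a (12, 4 and 9 against 29, 31 and 32) and Snord104 (15, 5 and 5 against 16, 19 and 13). Snora57 (15, 6 and 8 against 37, 25 and 18) did likewise. The shares and medians of the tested Snord and Snora RNAs can therefore lean upward. Without the filter 3 of 11 Snora RNAs rose, with a median of 0.43. In that setting 3 of 10 Snord RNAs rose, with a median of 0.65. Of the 6 Scarna RNAs edgeR called 0, as did DESeq2 and limma-voom. Scarna13 and Scarna17, 2 of the 6, had an unadjusted p under 0.05. The median was -0.20, which became 0.49 with library size alone, -0.33 without control 3, -0.30 without knockout 3 and -0.08 with at least 50 counts in 3 libraries, where 4 were tested. The families were not tested against each other. Over all snoRNA and scaRNA members the number that rose was 5, and it was 3 without control 2, without control 3 or without knockout 3.

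**Figure D1:**
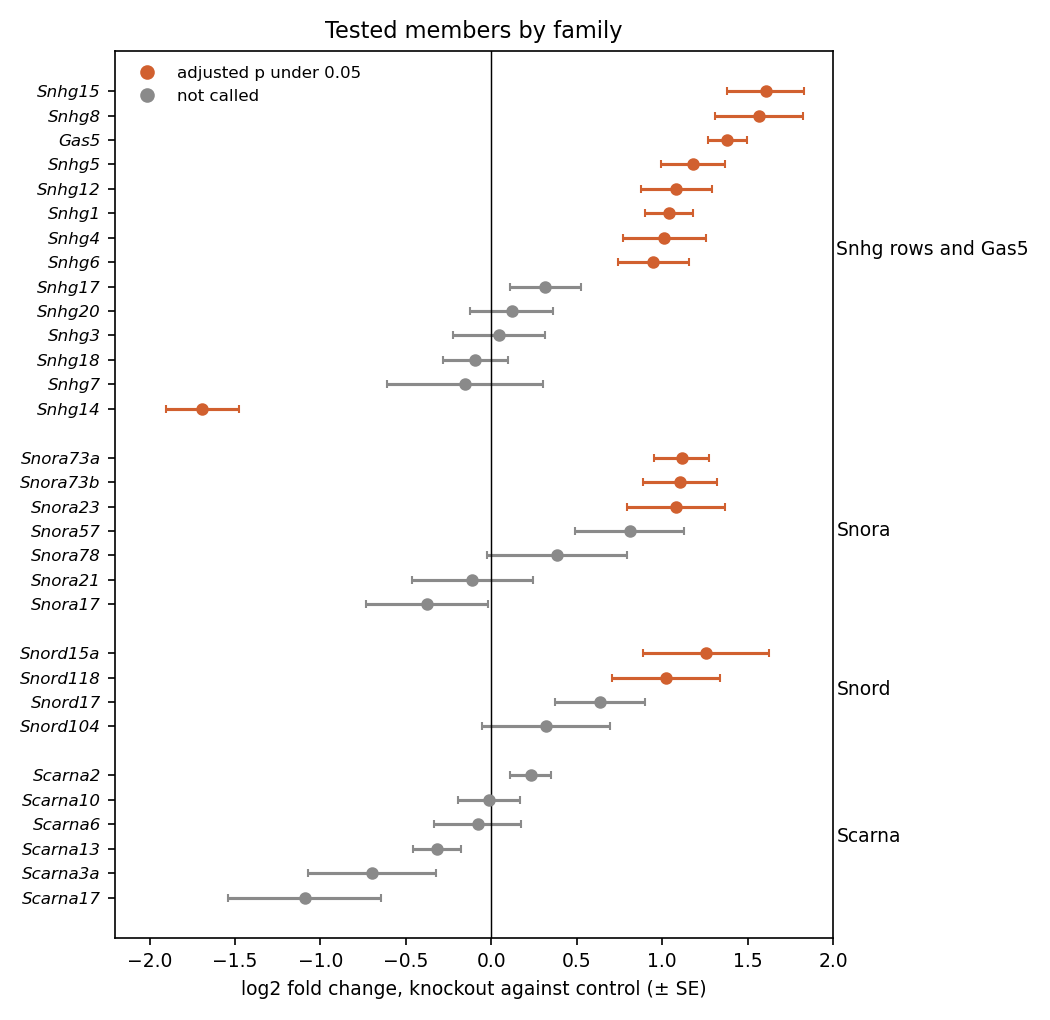
Log2 fold change of knockout against control with its standard error for each of the 31 tested members, grouped by family. Orange marks the 14 genes called at an adjusted p under 0.05, all to the right of 0 except Snhg14 at -1.69; none of the Scarna RNAs is orange.

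The largest measured snoRNAs that rose are shown first, since their sequence bears on how they can be counted. Snora73a (chr4:132352775-132352979, minus strand) and Snora73b (chr4:132352322-132352526, minus strand), also known as U17 or E1 RNAs, take part in cleavage of the precursor of the small ribosomal subunit RNA. Both lie inside Snhg3 and inside Rcc1. Sequences and positions are those of GENCODE M21 transcripts on GRCm38, and capitals mark the ACA that stands 3 bases before the 3′ end of a box H/ACA RNA.
Snora73a: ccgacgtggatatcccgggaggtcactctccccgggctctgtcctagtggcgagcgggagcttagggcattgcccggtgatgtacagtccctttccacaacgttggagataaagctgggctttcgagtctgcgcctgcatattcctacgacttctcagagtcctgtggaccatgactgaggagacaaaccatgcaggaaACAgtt
Snora73b: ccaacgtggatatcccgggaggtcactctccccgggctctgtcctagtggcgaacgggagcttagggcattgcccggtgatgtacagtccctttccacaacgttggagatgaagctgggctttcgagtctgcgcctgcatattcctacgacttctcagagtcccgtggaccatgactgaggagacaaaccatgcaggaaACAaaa

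The pair has 205 bases each and differs at 7 of them, an identity of 96.6%. Counted from the 5′ end, with the base of Snora73a first, the differences are G3A, G54A, A111G, T164C, G203A, T204A and T205A, and the longest stretch without a difference has 56 bases. Reads could therefore be split between both genes by the authors' counting, and their separate levels are uncertain. Of Snora73a, 77.6% also lies in an annotated exon of another gene.

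Snora73b was measured at 28.1, 22.6 and 18.4 CPM in the controls and at 37.1, 47.0 and 65.6 CPM in the knockouts. Snora73a gave 20.99, 18.0 and 15.4 CPM in the controls and 32.7, 40.2 and 45.7 CPM in the knockouts. In neither did the groups overlap, and in both control 1 was the highest control and knockout 3 the highest knockout. Summed over the pair, which does not depend on how reads were split between them, the controls held 49.1, 40.6 and 33.8 CPM and the knockouts 69.8, 87.2 and 111 CPM. The fitted changes were 1.10 (SE 0.22, adjusted p = 0.0035), a fold of 2.15, for Snora73b and 1.11 (SE 0.16, adjusted p = 6.24e-04), a fold of 2.16, for Snora73a.

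Snora23 (chr7:110046364-110046547, plus strand) lies in an intron of Ipo7, the gene of an importin that carries ribosomal proteins into the nucleus. It is the other H/ACA RNA that rose, and its ACA is again in capitals.
Snora23: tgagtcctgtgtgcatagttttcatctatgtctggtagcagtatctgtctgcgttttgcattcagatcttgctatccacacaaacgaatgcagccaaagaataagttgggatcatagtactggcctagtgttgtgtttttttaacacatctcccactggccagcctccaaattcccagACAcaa

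Its levels were 2.33, 2.89 and 1.63 CPM in the controls and 3.71, 4.59 and 6.44 CPM in the knockouts, where every heart stood above every control. The change was 1.08 (SE 0.29, adjusted p = 0.0148). Without control 3 it was 0.91 and no longer called (adjusted p = 0.0551). The 4 other tested Snora RNAs were not called. Their changes ran from -0.38 for Snora17 to 0.81 for Snora57, whose levels in the knockouts (1.96, 1.45 and 1.45 CPM) stood above those in the controls (1.13, 0.67 and 0.93 CPM) with an adjusted p of 0.0719. Snora78 was called only without control 1 (1.18, adjusted p = 0.0363) and with library size alone (1.02, adjusted p = 0.0229).

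Among the box C/D RNAs, Snord15a (chr7:99482785-99482932, minus strand) sits in an intron of Rps3, which encodes a protein of the small ribosomal subunit. Snord118 (chr11:69073427-69073561, plus strand), the U8 RNA, is needed for maturation of the large subunit RNAs and lies in no gene of that annotation on its strand. Both were called higher, and their box letters are in capitals, a C box searched as NTGATGA on the RNA strand and a D box searched as CTGA within the last 12 bases.
Snord15a: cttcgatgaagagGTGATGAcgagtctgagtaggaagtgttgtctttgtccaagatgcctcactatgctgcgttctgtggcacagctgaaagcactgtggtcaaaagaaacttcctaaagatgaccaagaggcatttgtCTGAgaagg
Snord118: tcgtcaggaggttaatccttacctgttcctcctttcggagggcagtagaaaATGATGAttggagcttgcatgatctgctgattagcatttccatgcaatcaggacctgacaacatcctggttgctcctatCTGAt

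Both box C and box D letters were found in 8 of the 10 Snord members and in none of the 11 Snora members, against 21.7% of all 1558 annotated snoRNA and scaRNA genes. The ACA at its fixed distance was found in 10 of 11 Snora members and 0 of 10 Snord members, against 19.3% of all. Of the Scarna members 4 of 6 held both box C and box D letters and 1 held the ACA. The looser H box letters ANANNA were present in 90.6% of all annotated snoRNA genes and so separate little.

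Snord15a was measured at 0.90, 0.44 and 1.05 CPM in the controls and at 1.54, 1.80 and 2.58 CPM in the knockouts, a change of 1.26 (SE 0.37, adjusted p = 0.0234). Snord118 was measured at 0.68, 1.0 and 0.93 CPM in the controls and at 1.96, 1.39 and 1.85 CPM in the knockouts, a change of 1.02 (SE 0.32, adjusted p = 0.0297). In both the groups stood apart, and both rested on few counts, 25 in the controls and 92 in the knockouts for Snord15a and 26 and 84 for Snord118. Snord15a was not called without control 1 (1.39, adjusted p = 0.0582), control 2 (1.01, adjusted p = 0.0844), knockout 2 (1.32, adjusted p = 0.0527) or knockout 3 (1.04, adjusted p = 0.0669). Snord118 was not called without control 1 (0.85, adjusted p = 0.1167), control 2 (1.14, adjusted p = 0.0601), control 3 (1.08, adjusted p = 0.0683), knockout 1 (0.91, adjusted p = 0.0688) or knockout 3 (0.98, adjusted p = 0.0679), nor with DESeq2 (1.05, adjusted p = 0.1208).

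Snord17, the box C/D RNA with the most counts (2041), was measured at 23.3, 19.9 and 15.7 CPM in the controls and at 19.4, 29.6 and 43.6 CPM in the knockouts. Knockout 1 lay within the control range and the other two knockouts above it. The change was 0.64 (SE 0.26) and was not called (adjusted p = 0.0826). It was called without knockout 1 (0.88, adjusted p = 0.0034), with DESeq2 (0.67, adjusted p = 0.0368), without the filter (0.68, adjusted p = 8.95e-05) and with library size alone (1.31, adjusted p = 1.43e-04). Without knockout 3 the change was 0.31 (adjusted p = 0.2925). Snord104 was also tested and not called, at 0.32 (SE 0.37, adjusted p = 0.5310).

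The Scarna RNAs included some of the best measured small RNAs. Scarna2, which guides modification of the U2 spliceosomal RNA and had 2726 counts, was measured at 33.6, 27.1 and 32.4 CPM in the controls and at 35.9, 34.3 and 39.3 CPM in the knockouts. All 3 knockouts stood above the controls, by a small margin, and the change of 0.23 (SE 0.12) was not called (adjusted p = 0.1628). With library size alone it was 0.92 (adjusted p = 4.92e-04), a setting in which the median of all genes moved to 0.68. Scarna10, with 2166 counts, had a change of -0.01 (SE 0.18) and overlapping groups, and it was called with library size alone (0.66, adjusted p = 0.0137). The others ran from -1.09 for Scarna17 (adjusted p = 0.0819) to -0.08 for Scarna6. Scarna17 was called lower without control 1 (-1.44, adjusted p = 0.0388).

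Per kilobase of exonic sequence, the mean control level was 112 CPM for Snora73b, 88.5 for Snora73a, 84.6 for Scarna10, 82.5 for Snord17, 75.0 for Scarna2 and 46.8 for Scarna13. The host transcripts with a length ranged from 0.11 CPM per kilobase for Snhg11 to 5.89 for Gas5. In the knockouts Snora73b stood at 243 and Gas5 at 15.3 CPM per kilobase. Counts of small RNAs also went with their length, as given below, so these values do not rank RNAs of different length or a small RNA against a host.

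**Figure D2:**
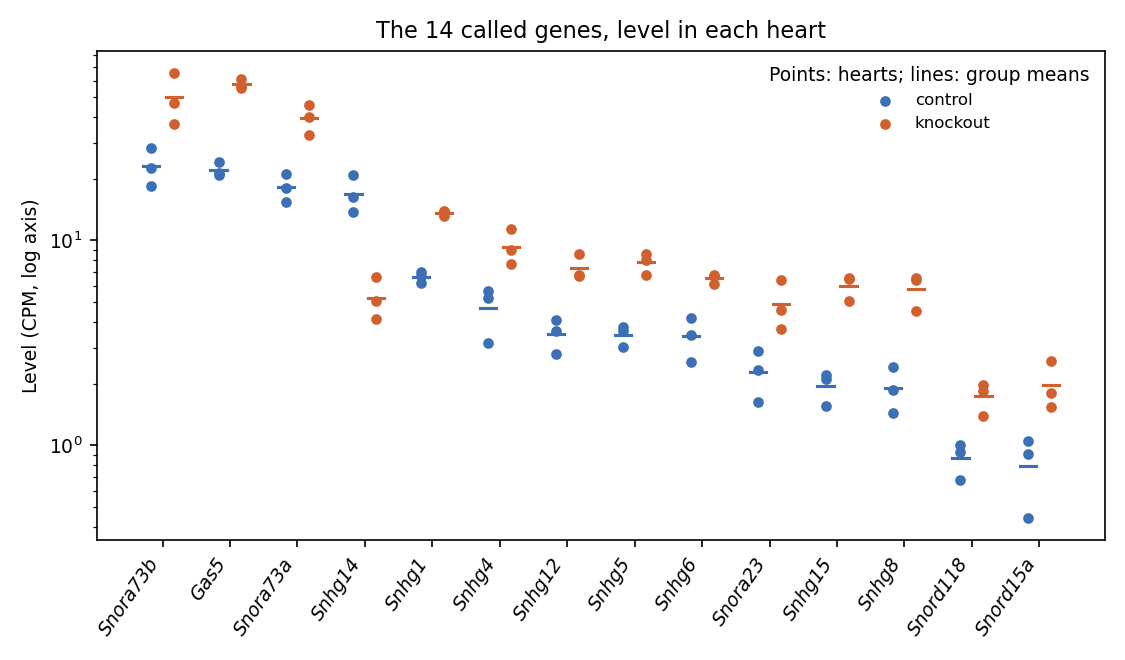
Level of each of the 14 called members in each heart, in CPM on a log axis, with points for hearts and short lines for group means. The groups stand apart for each of these genes, and Snhg14 is the only one with the knockouts below the controls. The genes were picked by their call between the same groups, so this separation is no further evidence. It was also present in Scarna2, Scarna3a, Scarna13, Scarna17 and Snora57, which were tested and not called. The share of all genes with groups apart was not counted.

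Among the host transcripts, Gas5 (chr1:161034422-161038539, plus strand) had the most counts of all members, 3454. Gas5 is a non-coding RNA that accumulates in growth-arrested cells, and the annotation places 10 snoRNA genes inside it. It was measured at 20.8, 21.4 and 24.2 CPM in the controls and at 55.3, 56.4 and 61.4 CPM in the knockouts. The lowest knockout was thus more than the highest control by a wide margin, and the spread within each group was small. The mean rose from 22.1 ± 1.77 to 57.7 ± 3.22 CPM (SD, n = 3 each). On the log2 scale this was 1.38 (SE 0.11, edgeR adjusted p = 2.80e-05), a fold of 2.61. Zbtb37 overlaps Gas5 on the other strand, so without strand reads in the stretch they share cannot be assigned to either gene.

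Snhg1 (chr19:8723475-8726443, plus strand), the host of 8 annotated snoRNAs that include those of the U22 cluster, was the next in counts among the hosts that rose. Its levels were 6.17, 7.0 and 6.74 CPM in the controls and 13.2, 13.9 and 13.8 CPM in the knockouts, with hardly any spread within a group. It rose by 1.04 (SE 0.14, adjusted p = 4.24e-04), a fold of 2.06. Snhg12 (chr4:132308623-132311024, plus strand), which holds 5 annotated snoRNAs, went from 2.78, 4.11 and 3.60 to 6.79, 6.68 and 8.61 CPM, a change of 1.08 (SE 0.21, adjusted p = 0.0032).

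Snhg15 (chr11:6525591-6528760, minus strand) and Snhg8 (chr3:123507552-123508404, minus strand), each with 1 annotated snoRNA, had the largest rises among the members. Snhg15, a short-lived non-coding RNA, was measured at 2.11, 1.56 and 2.21 CPM in the controls and at 5.04, 6.50 and 6.52 CPM in the knockouts, a change of 1.61 (SE 0.23, adjusted p = 5.82e-04). Snhg8 was measured at 2.41, 1.44 and 1.86 CPM in the controls and at 4.51, 6.39 and 6.52 CPM in the knockouts, a change of 1.57 (SE 0.26, adjusted p = 0.0014). In both, each knockout stood at more than the highest control.

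Snhg5 (chr9:88521050-88522929, minus strand), the host of the U50 snoRNAs, rose from 3.01, 3.78 and 3.60 to 6.79, 8.59 and 8.05 CPM, by 1.18 (SE 0.19, adjusted p = 0.0011). Snhg6 (chr1:9941959-9944118, minus strand) rose from 3.46, 2.56 and 4.18 to 6.74, 6.79 and 6.12 CPM, by 0.95 (SE 0.21, adjusted p = 0.0060). Snhg4 rose from 3.16, 5.67 and 5.23 to 7.64, 8.94 and 11.4 CPM, by 1.01 (SE 0.24, adjusted p = 0.0097). The identifier of Snhg4 is not in the annotation, so it has no position or length here. The 8 rises named in this and the preceding paragraphs on hosts, Gas5 included, were called under each alternative run, the 6 that leave out a library among them.

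Snhg14 was the 1 member that fell. In the mouse it is transcribed from the paternal chromosome of the imprinted Prader-Willi region, across clusters of box C/D snoRNAs and antisense to Ube3a. The deposited identifier covers chr7:59307924-59975759 on the minus strand, a span of 667836 bases with 208 annotated snoRNA genes inside, of which 5 had counts, 5 in all. It was measured at 13.7, 16.3 and 20.8 CPM in the controls and at 4.14, 5.05 and 6.60 CPM in the knockouts. Each knockout lay far below the lowest control. The change was -1.69 (SE 0.21, adjusted p = 3.10e-04), a level 3.23-fold lower.

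Other genes of that region, chosen after their values were seen, showed both a fall and no call. Snrpn, which encodes a spliceosomal SmN protein and lies next to the Snhg14 span given above on the same strand, was measured at 24.3, 28.1 and 45.3 CPM in the controls and at 10.8, 8.19 and 5.80 CPM in the knockouts, a change of -1.96 (SE 0.27, adjusted p = 4.98e-04). Gm38393, which overlaps both on that strand, fell by 1.54 (SE 0.18, adjusted p = 2.08e-04). Ube3a, a ubiquitin ligase gene that overlaps the end of Snhg14 on the opposite strand, had 179, 177 and 160 CPM in the controls and 167, 198 and 204 CPM in the knockouts and was not called (0.14, SE 0.13, adjusted p = 0.4189). Without strand, reads in the shared stretch cannot be assigned to either gene.

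The remaining host rows were not called. Snhg17 was at 5.64, 4.67 and 7.20 CPM in the controls and at 8.28, 5.98 and 7.49 CPM in the knockouts (0.32, SE 0.21, adjusted p = 0.2550). Snhg20 had a change of 0.12 (SE 0.24), Snhg3 of 0.05 (SE 0.27) and Snhg18 of -0.09 (SE 0.19), and in all 3 the groups overlapped. With library size alone Snhg17, Snhg20, Snhg3 and Snhg18 were called higher, at 1.01, 0.80, 0.74 and 0.60, beside the median of 0.68 over all genes. The row named Snhg7 (-0.15, SE 0.46) covers only 139 bases at chr2:26637847-26637985, the position that RefSeq gives to the snoRNA Snora43, so the long Snhg7 transcript was not measured by it. Snhg11 was too low for the filter, with 9, 7 and 11 counts in the controls and 3, 1 and 4 in the knockouts. The authors' deposited table gives it a log2 fold change of -2.37 (adjusted p = 0.0258), and without the filter edgeR gave -2.30 (adjusted p = 0.0023).

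Known transcripts of this kind, Gas5 and Snhg1 among them, start with a run of pyrimidines as ribosomal protein mRNAs do, a 5′ terminal oligopyrimidine tract that ties their translation to growth signals. RefSeq start sites on GRCm38.p6 were found for 13 of the 15 host names, not for Snhg4 and Snhg6. Around each start, 25 bases before and 25 from the start onward are printed on the sense strand for those with a long run or a second Gas5 start and for Snhg14, which fell. Capitals mark the longest run of C and T that touches the 5 bases on either side of the start.
Gas5 (chr1:161035141-161035190, plus strand): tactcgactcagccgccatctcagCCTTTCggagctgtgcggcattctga
Snhg1 (chr19:8723462-8723511, plus strand): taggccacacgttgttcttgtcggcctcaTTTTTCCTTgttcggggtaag
Snhg12 (chr4:132308653-132308702, plus strand): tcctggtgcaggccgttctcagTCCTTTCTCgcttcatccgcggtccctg
Snhg8 (chr3:123508312-123508361, minus strand): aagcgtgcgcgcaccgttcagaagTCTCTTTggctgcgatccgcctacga
Snhg18 (chr15:32244638-32244687, minus strand): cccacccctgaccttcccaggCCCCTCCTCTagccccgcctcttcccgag
Snhg14 (chr7:60450153-60450202, minus strand): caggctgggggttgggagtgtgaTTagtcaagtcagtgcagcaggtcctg

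The run was 9 bases at Snhg1 and Snhg12, 7 at Snhg8, 10 at Snhg18 and 2 at Snhg14. The Snhg14 start lies outside the span of the row measured here (chr7:59307924-59975759), on the far side of Snrpn, so it need not belong to the RNA that was counted. It was 6 at the second Gas5 start and 3 at the first. Runs of at least 7 bases were present at 4 of the 13 hosts (30.8%), at 14.1% of all 32851 promoters in that table and at 40.8% of its 49 ribosomal protein promoters. Of the 4 hosts with such a run, Snhg1, Snhg12 and Snhg8 rose and Snhg18 was not called. Of the 9 hosts with shorter runs Gas5, Snhg15 (4 bases) and Snhg5 (3 bases) rose and Snhg14 fell. Snhg3 (5 bases), Snhg20 (2 bases), Snhg17 (3 and 6 bases at 2 starts) and Snhg7 (6 bases), whose row here covers another RNA, were not called, and Snhg11 (3 bases) was not tested. Over the whole promoter stretch, from 250 bases before to 50 after the start, the E box CACGTG was found in Snhg15 alone of the 13, against 7.15% of all promoters, and TGATGNAA, searched on both strands, in none, against 3.97%. The match is only of letters, and the annotated starts need not be those used in these hearts.

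The spliced RNA and the snoRNA of a host come from the same precursor, so each tested small RNA was set beside the gene that holds it. Snora73a and Snora73b rose while neither annotated host was called. Snhg3 was measured at 1.88, 1.67 and 2.67 CPM in the controls and at 1.91, 2.44 and 2.01 CPM in the knockouts. Rcc1, the exchange factor of the Ran GTPase, was at 4.21, 4.67 and 5.23 CPM in the controls and at 6.47, 5.57 and 6.12 CPM in the knockouts, a change of 0.37 (SE 0.18, adjusted p = 0.1238). Counts of Snora73b per count of Snhg3 were 15.0, 13.5 and 6.87 in the controls and 19.4, 19.3 and 32.6 in the knockouts, which do not overlap. Per count of Rcc1 they were 6.68, 4.83 and 3.51 against 5.74, 8.43 and 10.7, which do. Snora73a per count of Snhg3 gave 11.2, 10.8 and 5.78 in the controls and 17.1, 16.5 and 22.7 in the knockouts, and per count of Rcc1 it gave 4.98, 3.86 and 2.96 against 5.05, 7.21 and 7.47. Neither of these ratios overlapped between the groups, the latter by a small margin. Each of the 3 ratios without overlap had an exact permutation p of 0.1, the smallest possible with 3 hearts a group. The 3 ratios share their hosts and rest on nearly identical small RNAs, so they are not separate observations. Such ratios were formed for every member with a counted host, without adjustment for their number, and most overlapped between the groups. Snhg3 had only 166 counts in all. Snora73a overlaps an exon of Snhg3, so reads there could belong to either.

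In the pairs Snora23 with Ipo7 and Snord15a with Rps3, small RNA and host both rose. Ipo7 was measured at 130, 120 and 121 CPM in the controls and at 189, 194 and 188 CPM in the knockouts (0.62, SE 0.11, adjusted p = 0.0019). Rps3 was at 140, 113 and 98.7 CPM in the controls and at 222, 262 and 230 CPM in the knockouts (1.02, SE 0.15, adjusted p = 7.37e-04). The ratio of small RNA to host counts overlapped between the groups in both pairs.

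In other pairs the host was called and the small RNA was not. Rpl23, the host of Snora21, rose by 0.95 (SE 0.13, adjusted p = 4.35e-04) beside -0.11 (SE 0.35) for Snora21, and the count ratio overlapped. Snx5, the host of Snord17, rose by 0.44 (SE 0.14, adjusted p = 0.0312). It was not called with the block or when control 2 (0.35), control 3, knockout 2 (0.36) or knockout 3 was left out. Ncapd2, a condensin subunit gene that holds Scarna10, fell by 0.58 (SE 0.17, adjusted p = 0.0211). Leaving out control 1, control 2, knockout 2 or knockout 3 ended that call, and with library size alone the value was 0.11 and not called. Scarna10 overlaps one of its exons for 87.1% of its length. Atg16l1 and Scarna6 were both not called, as were Scarna3a and its host, named Rfwd2 in the files and Cop1 in the annotation (0.31, SE 0.11, adjusted p = 0.0525), which was called higher without knockout 1 (0.33). Counts of Scarna3a per count of Rfwd2 were 0.0162, 0.0258 and 0.0148 in the controls and 0.00942, 0.0112 and 0.00713 in the knockouts, lower in each knockout than in any control. This ratio rests on 59 counts of Scarna3a in all and had an exact permutation p of 0.1, the smallest possible here. Snora17, Snora57, Scarna2, Scarna17, Snord13, Snord104 and Snord118 have no host on their strand in GENCODE M21. Snora17 lies within the span that RefSeq gives to Snhg7 (chr2:26637176-26640244), a transcript with no row of its own here.

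**Figure D3:**
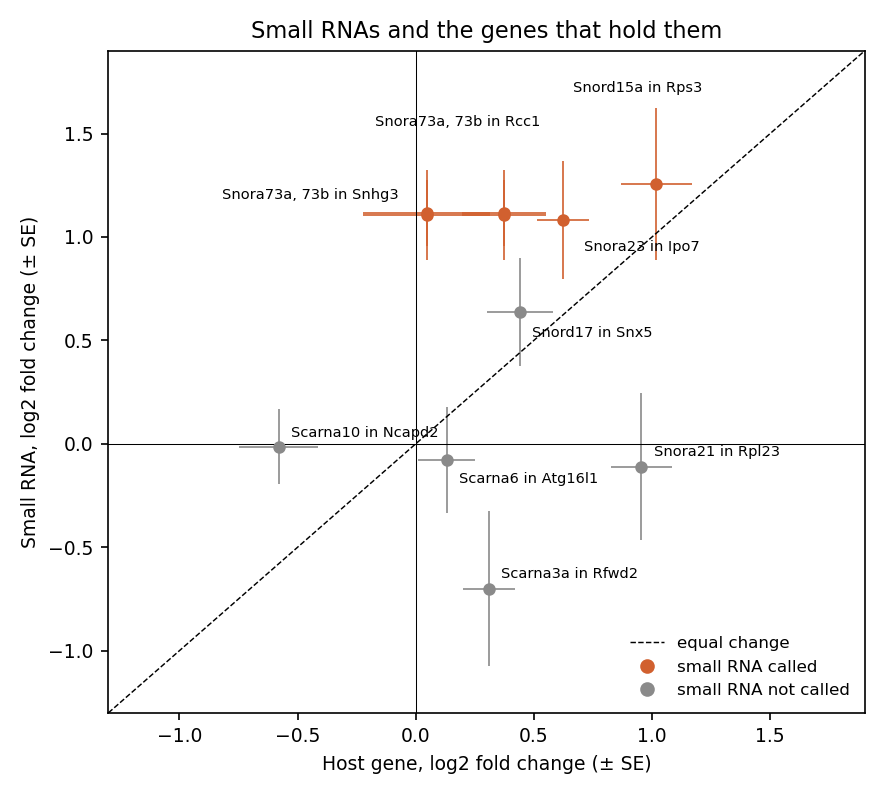
Log2 fold change of each tested small RNA (vertical) against that of the gene holding it (horizontal), with standard errors; the dashed line is equal change. Orange marks called small RNAs: Snora73a and Snora73b lie at about 1.1 with Snhg3 at 0.05 and Rcc1 at 0.37, whereas Snora21 lies at -0.11 with Rpl23 at 0.95.

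The 11 members below the filter had 30 to 53 counts each over all libraries and were not tested. Several of them lie in hosts that rose. Snord83b and Snord43, the latter typed as a microRNA in the authors' deposited table, are in Rpl3, a large subunit protein gene that was at 84.0, 67.3 and 69.7 CPM in the controls and 228, 297 and 225 CPM in the knockouts (1.76, SE 0.15, adjusted p = 4.16e-05). Snord83b per count of Rpl3 was 0.00358, 0.00330 and 0.005 in the controls and 0.00187, 0.00117 and 0.0025 in the knockouts, which do not overlap but rest on 30 counts of Snord83b in all. Snord53 is in Wdr43 (1.15, SE 0.12, adjusted p = 1.08e-04) and Snora41 in Eef1b2 (0.59, SE 0.12, adjusted p = 0.0048). Snord49a is in the non-coding gene 2410006H16Rik, which was at 1.66, 1.44 and 2.67 CPM in the controls and at 12.9, 14.2 and 14.1 CPM in the knockouts (2.85, SE 0.21, adjusted p = 1.81e-05). Snord49a itself had 8 counts in all controls and 26 in all knockouts, with overlapping CPM. The hosts of Snora30, Snora31, Snora34 and Snord59a were not called, Srcap at -0.45, Tpt1 at -0.46, Kansl2 at 0.30 and Atp5b at -0.27. Without knockout 1, Srcap (-0.53) and Tpt1 (-0.63) were called lower. Snora30 also lies in Gm42715 (-0.35, not called). The hosts of Scarna13 and Snora78 are Snhg10, named AC140477.3 in the files, and Snhg9, which had 32 and 19 counts and were not tested.

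The same question was asked of every gene with an annotated snoRNA or scaRNA gene inside it on its strand, 341 genes in the files. All 29 ribosomal protein genes of this kind were higher, with a median of 0.95 and a range from 0.46 to 1.76. Ribosomal protein genes without an annotated snoRNA gave 48 higher and 1 lower of 56 tested, with a median of 0.86. The difference between both sets was not tested. Of 207 other protein-coding hosts tested, 54 were higher (26.1%) and 34 lower, with a median of 0.07, and with library size alone 139 were higher and 3 lower. The lower calls among them were 18 without control 2 and 17 without knockout 2.

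Non-coding hosts that the name rule does not cover went both ways. Of 19 tested, 6 were higher and 3 lower, with a median of -0.08. The sign of that median turned without control 1 (0.08), without control 3 (0.24), without the filter (0.31, 30 tested), with at least 50 counts in 3 libraries (1.05, 5 tested) and with library size alone (0.59), and it was -0.19 without knockout 1. The numbers higher and lower were 4 and 3 without control 1 or 2 and with the block, 5 and 1 without control 3 or knockout 2, and 4 and 0 of the 5 with at least 50 counts. Besides 2410006H16Rik, those higher included 1110038B12Rik (1.62, SE 0.25, adjusted p = 9.39e-04) and Zfas1 (1.21, SE 0.17, adjusted p = 5.51e-04), both chosen after their values were seen. The 3 lower were Gm29170 (-1.56, SE 0.33, adjusted p = 0.0051), 2310014F06Rik (-1.15, SE 0.31, adjusted p = 0.0164) and 9430037G07Rik (-1.12, SE 0.29, adjusted p = 0.0131). Zfas1 holds 3 annotated snoRNAs and was at 4.59, 5.11 and 5.46 CPM in the controls and at 9.87, 12.6 and 12.4 CPM in the knockouts.

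**Figure D4:**
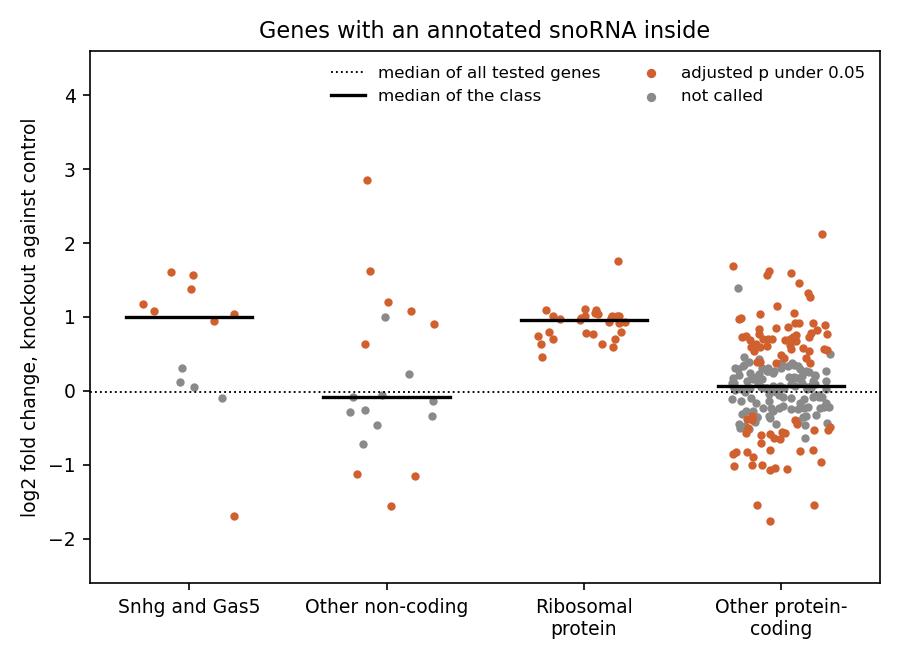
Log2 fold change of every tested gene with an annotated snoRNA inside, by class, with points for genes, thick lines for class medians and a dotted line for the median of all tested genes. The medians are 0.99 for Snhg and Gas5, -0.08 for other non-coding hosts, 0.95 for ribosomal protein hosts and 0.07 for other protein-coding hosts.

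Which small RNAs had counts differed with where they lie. Of the 149 Snora, Snord and Scarna rows with a position, 56 fall wholly within an annotated exon of another gene, and 53 of these were at 0 counts in all libraries and none became a member. Of 83 rows that touch no exon, 20 were at 0 and 25 became members. This bears on the host transcripts above. Gas5 is annotated with exons over 91.3% of its span, and Snhg1 and Snhg8 over 100%, and the snoRNA rows inside Gas5 (10), Snhg1 (8), Snhg5 (2) and Snhg8 (1) were all at 0 counts. The counts of those hosts can include reads from their introns and snoRNAs, which cannot be told apart from the spliced RNA here. The sources used here do not give the rule for reads that touch several genes.

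Length went with the counts too. Among the 83 rows outside exons the median was 8 counts for the 51 RNAs under 100 bases, 31 counts for the 27 RNAs from 100 to under 200 bases and 2041 counts for the 5 RNAs of 200 bases or more. All 5 of the latter were members, against 6 of the 51 shortest. Of all members under 100 bases only Snord104 and Scarna17 passed the filter and were tested.

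**Figure D5:**
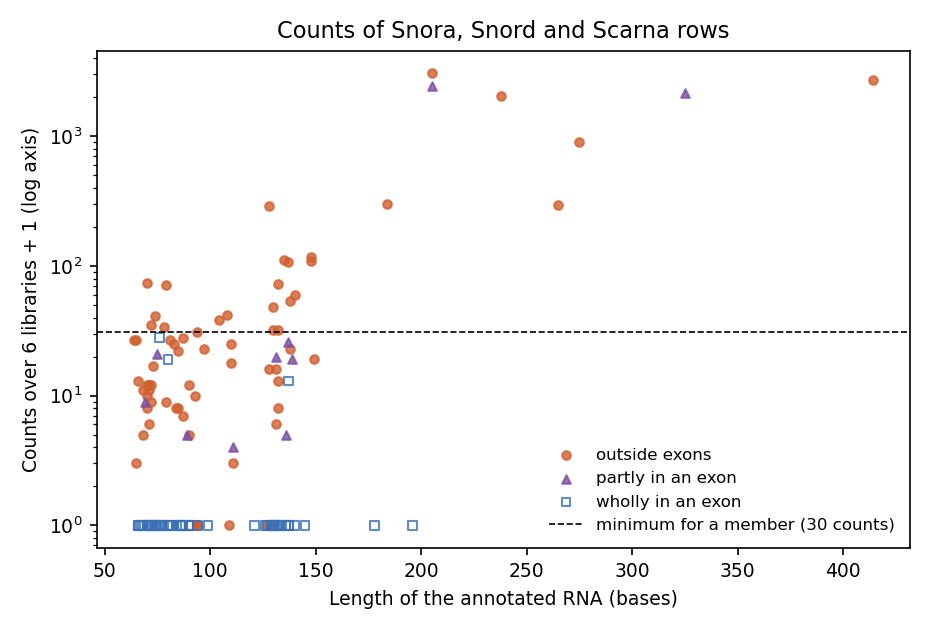
Counts over 6 libraries plus 1, on a log axis, of each Snora, Snord and Scarna row against the length of its annotated RNA, with symbols for its position relative to exons of other genes; points at the bottom overlap. The dashed line is the minimum of 30 counts for a member, and 53 of the 56 rows wholly in an exon lie at 0 counts.

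SnoRNAs work bound to a fixed set of proteins. In the box C/D particle Nop58 and Nop56, its scaffold proteins, were higher, and the 2 other core genes were not called, with a median of 0.67 over the 4. Nop58 was at 17.9, 16.9 and 16.6 CPM in the controls and at 52.8, 53.1 and 53.2 CPM in the knockouts (1.63, SE 0.11, adjusted p = 9.48e-06). Nop56 rose by 0.92 (SE 0.12, adjusted p = 4.37e-04). In the H/ACA particle 1 of 4 core genes rose, Nhp2, from 3.24, 3.56 and 3.72 to 19.3, 17.3 and 15.1 CPM (2.31, SE 0.17, adjusted p = 1.47e-05). The groups of Nop58, and likewise those of Nhp2, lay well apart. With library size alone, 4 of 4 genes were called higher in each particle.

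Of 18 assembly factors of these particles 8 were higher (median 0.33), and 4 were higher without control 2 and 5 without knockout 2 or with DESeq2. Among them were Hsp90aa1, a heat shock chaperone (1.41, SE 0.16, adjusted p = 1.50e-04), Nufip1 (0.89, SE 0.17, adjusted p = 0.0029), Pih1d1 (0.87, SE 0.18, adjusted p = 0.0044) and Ruvbl1, an ATPase of the assembly complex (0.85, SE 0.19, adjusted p = 0.0060). Of 19 genes for debranching of introns and trimming of snoRNA ends 8 were higher (median 0.44). Those with the smallest adjusted p were exosome subunits, Exosc2 at 1.43 (SE 0.18), Exosc1 at 1.24 (SE 0.18), Exosc5 at 0.99 (SE 0.17) and Exosc9 at 0.94 (SE 0.13). With library size alone 17 of the 18 and 18 of the 19 were called higher.

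The small subunit processome, the large complex that forms with the U3 snoRNA on the ribosomal RNA precursor, had 27 tested genes, of which 22 rose and 1 fell (median 0.61). Wdr75 went from 13.9, 14.2 and 12.1 to 33.1, 35.7 and 31.2 CPM (1.31, SE 0.12, adjusted p = 5.99e-05). Mphosph10 rose by 1.25 (SE 0.15), Wdr43, the host of Snord53, by 1.15 (SE 0.12) and Heatr1 by 1.05 (SE 0.13). The U3 RNA genes Rnu3a, Rnu3b1 and Rnu3b3 themselves were at 0 counts in all libraries.

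Of 14 nonsense-mediated decay factors, the machinery that removes the spliced RNA of many snoRNA hosts, 3 were higher and 1 lower with a median of 0.01, which was -0.07 without control 1, while with library size alone 12 were called higher. Smg5 rose by 0.55 (SE 0.11, adjusted p = 0.0037), Smg8 by 0.71 (SE 0.16, adjusted p = 0.0068) and Eif4a3 by 0.41 (SE 0.11, adjusted p = 0.0168). Eif4a3 was not called when control 1, control 3 or knockout 2 was left out. Upf2 fell by 0.47 (SE 0.16, adjusted p = 0.0473), a call that no longer stood with DESeq2, without any one of the 3 control libraries or without knockout 2 or 3.

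Structured nuclear and cytoplasmic RNAs that the name rule does not cover gave 3 higher and 1 lower of 10 tested, with a median of 0.20. Hosts of these RNAs were not looked up. The background over all tested genes was 18.7% higher and 17.8% lower. With library size alone 8 of 10 were called higher. The median was 0.05 without knockout 3, 0.11 without control 3 and 0.35 without knockout 1. The lower calls were 2 without knockout 3 and 0 without control 3, with DESeq2 and with at least 50 counts in 3 libraries. Rpph1, the RNA of RNase P, which cuts tRNA precursors at their 5′ end, was at 967, 677 and 540 CPM in the controls and at 1120, 1285 and 1582 CPM in the knockouts (0.87, SE 0.23, adjusted p = 0.0144). Rmrp, the RNA of the related RNase MRP, was at 345, 255 and 212 CPM in the controls and at 431, 464 and 576 CPM in the knockouts (0.86, SE 0.19, adjusted p = 0.0072). For both, control 1 was the highest control and knockout 3 the highest knockout, as for Snora73a and Snora73b. The same order was present in Snord17, Scarna2 and Scarna10, none of which was called. Vaultrc5, a vault RNA, rose by 1.12 (SE 0.30, adjusted p = 0.0168), and Rnu11, the U11 spliceosomal RNA, fell by 0.88 (SE 0.23, adjusted p = 0.0148). Of these calls Rpph1 was lost without control 2 (0.82, adjusted p = 0.0633), Vaultrc5 without control 1 (0.95), control 3 (1.01) or knockout 2 (0.96), and Rnu11 without control 3 (-0.81, adjusted p = 0.0520), with DESeq2 (-0.86, adjusted p = 0.0793) and with library size alone (-0.19).

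Markers of some of the heart's cell types differed between the groups as well. The background over all tested genes was 18.7% higher and 17.8% lower. Of 10 cardiomyocyte markers 4 were lower (median -0.39), and of 10 endothelial markers 5 were lower (median -0.31), medians that turned to 0.30 and 0.38 with library size alone. The cardiomyocyte median was -0.22 without knockout 1. The endothelial markers called lower were 2 without control 2, without knockout 2 or with the block, 3 without control 1 or knockout 3, and 7 without knockout 1. The summed endothelial level was 785 to 856 CPM in the controls and 572 to 663 CPM in the knockouts, and that of smooth muscle and pericytes 1136 to 1398 and 722 to 766 CPM, with 3 of 9 markers lower, 2 higher and a median of -0.41, which became 0.29 with library size alone. The number higher was 1 without any one control or without knockout 2. Of 10 fibroblast markers 1 was higher, Postn at 1.69 (SE 0.29, adjusted p = 0.0018), with summed levels of 1702 to 2525 and 2374 to 3408 CPM that overlapped. Of 10 macrophage markers 1 was higher, Lyz2 at 0.52, with sums of 208 to 228 and 220 to 263 CPM.

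Erythroid markers had summed levels of 522 to 1795 CPM in the controls and 1440 to 2942 CPM in the knockouts (1 of 7 higher, and 0 without control 1, control 2, knockout 2 or knockout 3), and atrial markers 385 to 1563 and 3411 to 4879 CPM (1 of 8 tested higher, 2 lower, and 4 lower without control 2). The atrial gene called higher was Nppa, at 751, 193 and 811 CPM in the controls and 2945, 4577 and 2966 CPM in the knockouts. Nppa made up most of the atrial sum in each knockout. The median over the tested atrial markers was -0.60, which became 0.09 with library size alone. Adipocyte markers ranged from 6.16 to 26.9 and from 2.76 to 61.8 CPM. Of 3 tested edgeR called 0, as did DESeq2 and limma-voom, and 0 had an unadjusted p under 0.05, while 1 was called lower without knockout 3. The 9 lymphocyte markers summed to at most 2.65 CPM in any library. No marker on these lists was at 0 in all libraries. The part of these shifts, and of the lower mitochondrial share, in the changes of the snoRNAs and their hosts was not tested.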

How the data were processed

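Heart RNA of 3 control and 3 knockout mice was sequenced as paired-end TruSeq libraries, with 4 technical replicates per mouse and 1 deposited column each, per the labels. HISAT2 2.0.5, SAMtools 1.5, featureCounts 1.5.1, DESeq2 1.16.1 and the mm10 build are named in the submitters' processing notes, without role or option. The sources used here do not say whether counting used strand. The authors deposited whole-number read counts per gene without normalisation, and a DESeq2 table with a log2 fold change and its standard error. The deposited table also holds a p-value and its adjusted value for each gene.

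Counts were tested as deposited with edgeR 4.0.16 (quasi-likelihood, TMM scaling, filterByExpr at a minimum count of 10, no block) in R 4.3.3, with Benjamini-Hochberg adjustment over 14302 genes and calls under 0.05. CPM used TMM-scaled library sizes (factors 0.72 to 1.31). An SE is the log2 fold change divided by the square root of F. Depth sets the precision of low members, and p-values measure the spread between 3 hearts a group. The labels record no batch. No per-sample column was left unmapped. Of 51888 identifiers 51682 were in GENCODE M21 (GRCm38), which gave positions, hosts (a gene on the same strand that contains the snoRNA) and snoRNA sequences, and RefSeq (GRCm38.p6) gave promoters. The code was tested on simulated counts.

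The members and gene lists were chosen with earlier results of these data known. Named were all host rows, each called snoRNA, the member with the most counts in the Snora, Snord and Scarna families, hosts of members, and up to 4 called genes per list. The alternatives tried were DESeq2 1.42.0, limma-voom (limma 3.58.1), a robust edgeR fit and the authors' table. For scaling they were RLE, TMM without mitochondrial genes and library size alone, and for filters none or 50 counts in 3 libraries. A replicate block, an adjusted p under 0.01 and leaving out each library complete them.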

Additional observations from a re-analysis of the deposited data

How the results depend on the processing

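The number of all genes called was 5215. It became 8645 with library size alone and 3006 at an adjusted p under 0.01. The number of members called higher, 13, became 22 with library size alone, where the members' median moved from 0.39 to 1.02 and that of all genes to 0.68. The members' median was 0.95 with at least 50 counts in 3 libraries, where 20 members were tested. The number called lower, 1, became 2 without the filter, with DESeq2 and in the authors' deposited table, each time through Snhg11. When each library was left out in turn, 3694 to 5837 genes were called, 11 to 13 members were higher, 1 to 2 were lower and the median ran from 0.25 to 0.79. Control and knockout libraries of the same number had correlated deviations of -0.234, 0.102 and -0.118, and those of different numbers -0.186 to 0.217. With 3 libraries a group, these values cannot settle whether mice of the same number were paired. With the number as a replicate block 4293 genes and 12 members higher and 1 lower were called, with a median of 0.52, and Snord118 (1.02) was not called (adjusted p = 0.0610). Of 331 alternative values for 21 named members (Snhg11, untested in the main setting, is not among them) 13 lost a call, 10 gained one and 0 changed the direction of a call. Low counts limit Snord15a and Snord118, and the 11 untested members.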

Other observations

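Among the 124 rows that carried a snoRNA or host name but fewer than 30 counts, 73 had none, and the 208 annotated snoRNA genes inside Snhg14 gave 5 counts in all, so these data say nothing of the snoRNAs of that cluster or of those inside Gas5 and Snhg1. The H/ACA RNAs Snora73a and Snora73b together held 5509 of the counts.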
